A study of Homo sapiens with 4 samples.

Results

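The human globin genes lie in 2 clusters, and the 10 genes described here are the embryonic, fetal and adult globins of both. Each was found as the row of the deposited table whose Ensembl identifier carries its symbol in GENCODE release 44. All 10 symbols had a row among the 58735 genes of the table, 5 alpha-like genes (HBZ, HBM, HBA2, HBA1 and HBQ1) on chromosome 16 and 5 beta-like genes (HBE1, HBG2, HBG1, HBD and HBB) on chromosome 11. RNA was sequenced from human cells labelled NB4, the name of a line established from acute promyelocytic leukemia. The control group is 2 libraries titled as the GNE987 control, and these titles do not say whether a vehicle was given. The other group is 2 libraries labelled with the compound GNE987, which the study writes as GNE-987 and gave at 25 nM for 24 h. All 4 libraries come from the same line and the labels name no other treatment or genotype. The labels do not say that the libraries of a group came from separate cultures, so P values measure the spread between these libraries, which may be technical.

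Hemoglobin is a tetramer of alpha-like and beta-like chains, each of which carries a heme. In both clusters the genes stand in the order in which they are used during development, with the embryonic genes nearest to a distal enhancer, the fetal genes next in the beta cluster and the adult genes farther away. In red cell precursors the enhancers and promoters are bound by GATA1, TAL1, LDB1, KLF1 and NFE2, while BCL11A and ZBTB7A silence the fetal genes HBG1 and HBG2 in the adult. Promyelocytes do not make hemoglobin as part of their normal program.

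The base sequence before the start site of 2 of the genes was in the RefSeq promoter table used here (GRCh38.p14), HBM of the alpha cluster and HBD of the beta cluster. Both are shown because they are the members that table holds, 1 from each cluster, and because they differ in the short motifs known from globin promoters. The 160 bases before the start site are given 5′ to 3′ on the strand of the gene, and capitals mark 4 short motifs, searched on both strands. GATAA is bound by GATA factors. The motif CCAAT is bound by NF-Y, and CACCC is bound by KLF1 and its relatives. The last motif, ATAAA, stands for the box near the start site that places the polymerase. These are chr16:165818-165977 on the plus strand for HBM and chr11:5234484-5234643 on the minus strand for HBD.
HBM: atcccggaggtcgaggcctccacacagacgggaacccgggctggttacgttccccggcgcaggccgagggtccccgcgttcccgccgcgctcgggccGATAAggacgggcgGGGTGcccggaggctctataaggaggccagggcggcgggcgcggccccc
HBD: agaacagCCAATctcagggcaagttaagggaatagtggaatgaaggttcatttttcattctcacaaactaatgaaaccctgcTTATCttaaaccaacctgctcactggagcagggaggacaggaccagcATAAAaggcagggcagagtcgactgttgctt
The HBM stretch held GATAA from base -63 and GGGTG, which is CACCC on the other strand, from base -49, counted from the start site. It held no CCAAT or ATAAA. Near its start site it held the letters tataagg, so the missing ATAAA does not mean that HBM lacks the box that places the polymerase. The HBD stretch held CCAAT from base -153, TTATC, which is GATAA on the other strand, from base -78 and ATAAA from base -31, and it held no CACCC. Short motifs like these are common. Of 35116 promoters in that table, the 250 bases before the start site held GATAA in 20.4%, CCAAT in 32.0%, CACCC in 54.7% and ATAAA in 32.7%, on either strand. A match is a description of the letters and does not show that a factor was bound.

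The 4 libraries differed in depth and in scale. From the steps of the deposited FPKM values (fragments per kilobase of gene, divided by a total for the library), the control libraries held about 17844341 and 17621979 reads on genes, and the GNE-987 libraries about 11392709 and 11863384. The deposited values were scaled to 1.29 and 1.26 times these reads in the control libraries and to 0.734 and 0.744 times in the GNE-987 libraries, and GAPDH was at 398 and 432 FPKM in control and at 1501 and 1499 FPKM with GNE-987. Over genes above 0 in every library, the median ratio to the geometric mean was 1.008 in each of the 4 libraries, so the deposited values hold this median equal. Marker genes did not follow the label alone. In control, the erythroid genes GATA1 (124 and 122 FPKM), KLF1 (85.2 and 85.9 FPKM) and RHAG (144 and 143 FPKM) were well expressed, while MPO, a gene of neutrophil granules, was at 0.0246 and 0 FPKM, ELANE was listed at 0 in both libraries and CTSG in all 4. Not every marker lay on that side, since the erythroid genes AHSP (listed at 0 in both), SLC4A1 (0.0762 and 0.0793 FPKM) and EPB42 (0.0858 and 0.0893 FPKM) were also near 0 in control, while the myeloid genes SPI1 (7.52 and 5.68 FPKM), AZU1 (2.07 and 2.10 FPKM) and LYZ (2.02 and 1.59 FPKM) were detected. The 13 erythroid markers summed to 660 and 682 FPKM in control and to 348 and 331 FPKM with GNE-987. A large part of this sum was TFRC, at 243 and 270 FPKM in control and at 185 and 177 FPKM with GNE-987. Of the 11 erythroid markers that were tested, 2 were called higher and 6 lower. Among all protein-coding genes tested, 24% were called higher and 31.7% lower. The 10 promyelocyte and neutrophil markers summed to 12.9 and 11.2 FPKM in control and to 39.0 and 37.3 FPKM with GNE-987. These sums are in the deposited scaling, in which GAPDH was also higher. MPO was called higher, at 11.8 and 11.3 FPKM with GNE-987. LYZ, AZU1 and CEBPE were also called higher and CD33 lower among the 7 tested. Per 1000 FPKM of GAPDH, LYZ was at 5.07 and 3.68 in control and at 4.34 and 5.10 with GNE-987, which overlapped. MPO, AZU1 and CEBPE stayed above control on that measure. MPO and CEBPE, with means of 0.0123 and 0.0861 FPKM in control, were tested only because of their GNE-987 libraries. The part of the marker genes in the globin results was not tested. In bulk RNA, a change in the number of cells of a type and a change in RNA per cell cannot be told apart.

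In the deposited values, 8 of the 9 globin genes tested were expressed significantly higher in the GNE-987 group and 0 were lower by limma, where a call needed both a more than 2-fold change and an unadjusted P under 0.05. The same 8 passed with adjusted P values, as did 33.2% of all genes in that direction. Among all 16668 genes tested, 33.6% were called higher and 24.9% lower by the same rule, and among protein-coding genes 24% and 31.7%. The median log2 fold change of the 9 genes was 1.66 against 0.17 over all tested genes. These directions depend on the scaling: relative to GAPDH, 5 of the 9 (HBA2, HBZ, HBQ1, HBD and HBG1) were below 0. All 10 genes had both GNE-987 libraries above both control libraries in deposited FPKM, as did 47.5% of all tested genes, while 41.6% had both below. The tenth gene, HBE1, had a mean under 0.5 FPKM and was not tested. HBM and HBB passed this filter only through the GNE-987 libraries. Their means were 0.0731 and 0.0666 FPKM in control and 2.13 and 1.74 FPKM with GNE-987. Their calls thus concern genes admitted by the group in which they were high.

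**Figure D1:**
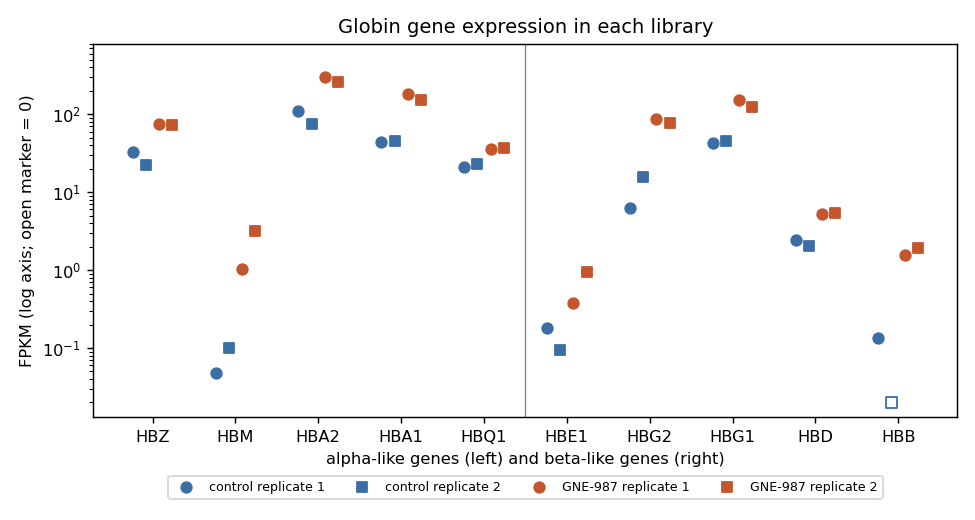
FPKM of the 10 globin genes in each library on a log axis, with control libraries in blue and GNE-987 libraries in red, circles for replicate 1 and squares for replicate 2. For every gene both red points lie above both blue points in the deposited scaling, and the gap is narrowest for HBQ1 (21.2 and 23.0 against 35.5 and 37.4 FPKM). The open square marks HBB in control replicate 2, listed at 0.

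HBA2 and HBA1 encode the same alpha chain, which is used from fetal life onwards, and HBA2 had the highest FPKM of all members in each library. HBA2 (ENSG00000188536, chr16:172876-173710, plus strand, 3 exons) was at 110 and 74.9 FPKM in control and at 301 and 263 FPKM with GNE-987. Its control libraries differed from each other by more than the GNE-987 libraries did on the log scale, and the groups did not overlap. The log2 fold change of HBA2 was 1.63 (SE 0.214, adjusted P = 0.00370). HBA1 (ENSG00000206172, chr16:176680-177522, plus strand, 3 exons) was at 43.8 and 45.4 FPKM in control and at 180 and 152 FPKM with GNE-987. Its control libraries lay close together, and its log2 fold change of 1.89 (SE 0.0982, adjusted P = 0.000389) had the smallest SE among the 8 genes called.

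The split of reads between HBA1 and HBA2 is uncertain. Of the windows of 100 bases in the main transcript, 79.7% of those in HBA1 and 79.9% of those in HBA2 occurred in the other gene letter for letter, and how the authors counted reads that match both is not given in the sources used here. Summed, HBA1 and HBA2 were at 154 and 120 FPKM in control and at 482 and 415 FPKM with GNE-987. This sum had a log2 fold change of 1.72 (SE 0.153, adjusted P = 0.00129), so its change in the deposited scaling does not rest on how the copies were told apart. Within the pair, HBA2 held 71.5% and 62.2% in control and 62.6% and 63.4% with GNE-987, and the groups overlapped.

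HBZ encodes the embryonic zeta chain, the first alpha-like chain of development. HBZ (ENSG00000130656, chr16:142728-154503, plus strand) was at 32.4 and 22.4 FPKM in control and at 74.3 and 71.9 FPKM with GNE-987. An embryonic gene was thus expressed in all 4 libraries, above the adult genes HBB and HBD in each, and the higher values were those with GNE-987. Its log2 fold change was 1.44 (SE 0.197, adjusted P = 0.00422). Of the 100-base windows of HBZ, 36.9% also occurred in the neighbouring pseudogene HBZP1, which was itself listed at 0 in 3 libraries and at 1.39 FPKM in GNE-987 replicate 1.

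HBM, which encodes the little-studied mu chain, was close to 0 in control. HBM (ENSG00000206177, chr16:153892-166764, plus strand) was at 0.0474 and 0.0987 FPKM in control (1 and 2 reads) and reached 1.04 and 3.22 FPKM with GNE-987 (8 and 26 reads). The GNE-987 libraries differed about as 1 to 3 between themselves and both lay above control. The ratio of reads, 34 with GNE-987 to 3 in control, was 29.8 in the deposited scaling with a 95% exact binomial interval from 9.36 to 151, and 17.3 per read on genes with an interval from 5.44 to 88.0. These intervals cover counting error only. By limma the log2 fold change was 3.51 (SE 0.623, adjusted P = 0.00894), a size set in part by the pseudocount, since it was 1.45 with a pseudocount of 1 and 4.55 with 0.01. In GENCODE, the gene model of HBM shares exon sequence with those of HBZ and HBZP1, so some of its reads could belong to either.

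HBQ1, which encodes the theta chain, had the lowest log2 fold change of the 9 tested genes in each scaling. HBQ1 (ENSG00000086506, chr16:180459-181179, plus strand, 3 exons) was at 21.2 and 23.0 FPKM in control and at 35.5 and 37.4 FPKM with GNE-987. Its log2 fold change of 0.72 (SE 0.0649, adjusted P = 0.00133) exceeded the spread between replicates but not the fold change of 2, so it was not called. HBQ1 shared no window of 50, 100 or 150 bases with the main transcript of another globin gene or globin pseudogene of the clusters. Scaled to reads on genes (per 1000000 reads) it was at 14.7 and 15.5 in control and at 13.96 and 14.9 with GNE-987, where the groups overlapped.

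HBG1 and HBG2 encode the gamma chain of fetal hemoglobin and held nearly all of the beta-like expression. HBG1 (ENSG00000213934, chr11:5248269-5249857, minus strand, 3 exons) was at 42.3 and 44.8 FPKM in control and at 154 and 123 FPKM with GNE-987, a log2 fold change of 1.66 (SE 0.124, adjusted P = 0.000834). HBG2 (ENSG00000196565, chr11:5253188-5505605, minus strand) was at 6.30 and 15.8 FPKM in control and at 88.2 and 77.7 FPKM with GNE-987. Its control libraries differed from each other more than those of HBG1 did, with 126 and 303 reads, and both stayed far below the GNE-987 libraries with 641 and 596 reads. The log2 fold change of HBG2 was 3.04 (SE 0.480, adjusted P = 0.00635). Summed, the gamma genes were at 48.6 and 60.6 FPKM in control and at 242 and 201 FPKM with GNE-987 (log2 fold change 2.02, SE 0.154, adjusted P = 0.000874).

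The level of HBG1 against HBG2 carries 2 limits. Of their 100-base windows, 53.9% of those in HBG1 and 54.0% of those in HBG2 occurred in the other gene. The deposited values also divide HBG1 by an exon length of 1659 bases, against 587 in its main transcript, and HBG2 by 869 bases, against 586. This lowers the FPKM of HBG1 relative to HBG2 in every library alike and leaves its fold change as it was. The gene models of HBG2 and HBE1 extend over 252 and 237 kb of the olfactory receptor genes beyond the cluster and share exon sequence with OR51B5.

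HBB and HBD encode the adult beta chain and the minor delta chain, and both were low. HBB (ENSG00000244734, chr11:5225464-5229395, minus strand) was at 0.133 FPKM in control replicate 1, which is 4 reads, and listed at 0 in control replicate 2, where 3 reads would be 0.104 FPKM. With GNE-987 it reached 1.56 and 1.91 FPKM, or 17 and 22 reads. The ratio of reads was 25.6 in the deposited scaling (95% exact binomial interval 9.24 to 98.7) and 14.9 per read on genes (5.36 to 57.3). By limma the log2 fold change of HBB was 3.58 (SE 0.517, adjusted P = 0.00488), and it was 1.36 (SE 0.145) with a pseudocount of 1 and 5.52 (SE 1.48) with 0.01. Even so, the highest HBB value stayed below the lowest value of HBD in any library.

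HBD (ENSG00000223609, chr11:5232678-5243657, minus strand), whose promoter with its CCAAT and TTATC motifs is printed above, was at 2.43 and 2.06 FPKM in control and at 5.18 and 5.35 FPKM with GNE-987. Its groups did not overlap in FPKM, with a log2 fold change of 1.20 (SE 0.116, adjusted P = 0.00159). When limma tested whether the change exceeded 2-fold, the unadjusted P value was 0.0837. The reads behind it were few, 71 and 58 in control and 55 and 60 with GNE-987. Per 1000000 reads on genes it was at 3.98 and 3.29 in control and at 4.83 and 5.06 with GNE-987, and the log2 fold change on that scaling, 0.44, did not reach the fold change of 2. Its gene model shares exon sequence with the pseudogene HBBP1.

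HBE1 (ENSG00000213931, chr11:5268345-5505652, minus strand), which encodes the embryonic epsilon chain, was the weakest member with GNE-987. It was at 0.181 and 0.0941 FPKM in control (4 and 2 reads) and reached 0.373 and 0.943 FPKM with GNE-987 (3 and 8 reads). The ratio of reads was 4.82 in the deposited scaling (95% exact binomial interval 1.63 to 15.9) and 2.80 per read on genes (0.948 to 9.21), and the latter interval holds 1. Scaled to reads on genes, a change of HBE1 was thus not detectable at this depth.

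By mean FPKM, the order in control was HBA2 (92.4 FPKM), HBA1 (44.6 FPKM), HBG1 (43.6 FPKM), HBZ (27.4 FPKM), HBQ1 (22.1 FPKM), HBG2 (11.03 FPKM) and HBD (2.25 FPKM), with HBE1, HBM and HBB under 0.2 FPKM. HBA1 overlapped HBG1, HBZ overlapped HBQ1, and HBM overlapped both HBE1 and HBB in the range of their libraries. With GNE-987 the order was HBA2 (282 FPKM), HBA1 (166 FPKM), HBG1 (139 FPKM), HBG2 (83.0 FPKM), HBZ (73.1 FPKM), HBQ1 (36.4 FPKM), HBD (5.27 FPKM), HBM (2.13 FPKM), HBB (1.74 FPKM) and HBE1 (0.658 FPKM). HBA1 again overlapped HBG1, and HBM overlapped HBB. HBG2 stood below HBZ and HBQ1 in control and above both with GNE-987. The order between genes rests on the exon lengths behind the FPKM. With recovered reads divided by the length of the main transcript, a measure added after seeing the data, HBG1 (2753 and 2801 reads per 1000 bases) stood above HBA1 (1461 and 1454) and within the range of HBA2 (3630 and 2378) in control, and HBG2 overlapped HBZ and HBQ1 there.

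The members were also compared under 4 other scalings. The median of all tested genes moved from 0.17 in the deposited scaling to -0.57 when libraries were scaled to their reads on genes, to -0.24 with quantile normalization, to -1.23 when scaled to their summed FPKM and to -1.59 when scaled to GAPDH. The median of the 9 globin genes moved with it, to 0.88, 1.07, 0.19 and -0.19. Scaling to reads on genes, to summed FPKM or to GAPDH moves all genes of a library by nearly 1 constant, so the distance between both medians is kept there almost by construction. Quantile normalization could move it, and there it was 1.32 against 1.49 in the deposited scaling. HBQ1 was nearest to the median of all genes, 0.54 above it in the deposited scaling.

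The number of members called followed the scaling. Scaled to reads on genes, HBA1 (1.10), HBM (2.97), HBB (3.09) and HBG2 (2.26) were called higher and HBQ1 was at -0.06. With quantile normalization HBA1, HBD, HBG2 and HBB were called, and HBM, at 1.99, was not. Scaled to summed FPKM, HBM, HBB and HBG2 were called. Relative to GAPDH, only HBM (2.21, SE 0.608) and HBB (2.40, SE 0.723) of the 9 were called higher, HBQ1 (-1.13) was called lower, and HBA1 was at 0.03. HBB was thus the gene called higher under each of these scalings, on 4 control reads. It passed the filter only through its GNE-987 libraries. In the same splits, 33.6% of all genes were called higher and 24.9% lower in the deposited scaling, 25.03% and 39.99% by reads on genes, 25.4% and 32.8% by quantile normalization, 19.9% and 52.5% by summed FPKM and 18.2% and 58.4% relative to GAPDH.

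**Figure D2:**
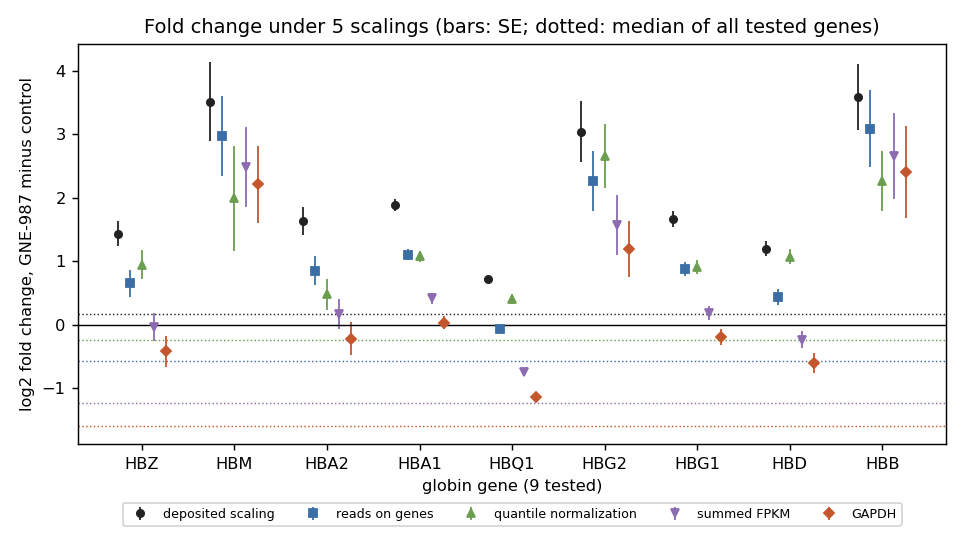
Log2 fold change between GNE-987 and control for the 9 tested globin genes under 5 scalings, with bars for the SE of the limma fit and dotted lines for the median of all 16668 tested genes in the same colour. Values shift down together from the deposited scaling (black) to GAPDH (red), where HBA2, HBZ, HBQ1, HBD and HBG1 lie below 0, and the dotted lines shift with the points.

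Other counts of the globin genes can be set beside this. The 10 genes together took 5582 and 4865 reads in control and 6828 and 6216 reads with GNE-987, although the GNE-987 libraries were shallower. This is 0.0313% and 0.0276% of the reads on genes in control and 0.0599% and 0.0524% with GNE-987. As a share of the summed FPKM of all genes, they were at 0.118% and 0.101% in control and at 0.135% and 0.120% with GNE-987, where the groups lie close to each other. Per 1000 FPKM of GAPDH, HBA2 was at 276 and 173 in control and at 201 and 176 with GNE-987, within the range of control, while HBG2 was at 15.8 and 36.5 in control and at 58.8 and 51.8 with GNE-987. Leaving out either GNE-987 library left 4 members called (HBA1, HBM, HBD and HBG1 each time), in a fit where the lone library is assumed to vary like the others. The log2 fold changes of the 4 that lost the call stayed near their values with all libraries, at 1.54 and 1.73 for HBA2, 1.41 and 1.46 for HBZ, 3.72 and 3.44 for HBB and 2.95 and 3.13 for HBG2, while their SE rose.

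Shares within a library do not depend on how libraries were scaled. Among the gamma genes, HBG2 held 12.96% and 26.0% of the summed FPKM in control and 36.4% and 38.6% with GNE-987. The difference of 18.04 points was larger than the spread in either group (SD 9.24 points in control and 1.54 points with GNE-987). A two-sided exact permutation test over the libraries gave P = 0.333, which is the smallest that 2 against 2 libraries allow, so no share can reach significance in this design. Without control replicate 1 the difference was 11.5 points and without control replicate 2 it was 24.6 points.

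Alpha-like genes held 80.2% and 72.6% of the summed FPKM of all 10 in control and 70.4% and 71.6% with GNE-987. The ratio of alpha-like to beta-like FPKM was 4.04 and 2.64 in control and 2.38 and 2.52 with GNE-987, and the difference between groups was smaller than that between the control libraries. With reads per base of the main transcript this ratio was 2.03 and 1.41 in control and 1.38 and 1.48 with GNE-987, where the groups overlapped, so its level depends on the lengths used. Within the alpha cluster, HBQ1 held 10.2% and 13.9% in control and 5.99% and 7.09% with GNE-987, and HBA1 and HBA2 together held 74.1% and 72.6% in control and 81.3% and 78.7% with GNE-987, neither of which overlapped (exact permutation P = 0.333 for each). The share of HBZ was 15.6% and 13.5% in control and 12.5% and 13.6% with GNE-987, which overlapped. Within the beta cluster, the gamma genes held 94.7% and 96.6% in control and 97.1% and 96.1% with GNE-987, which overlapped, HBD held 4.73% and 3.29% and then 2.08% and 2.56%, and HBB never exceeded 0.913%.

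**Figure D3:**
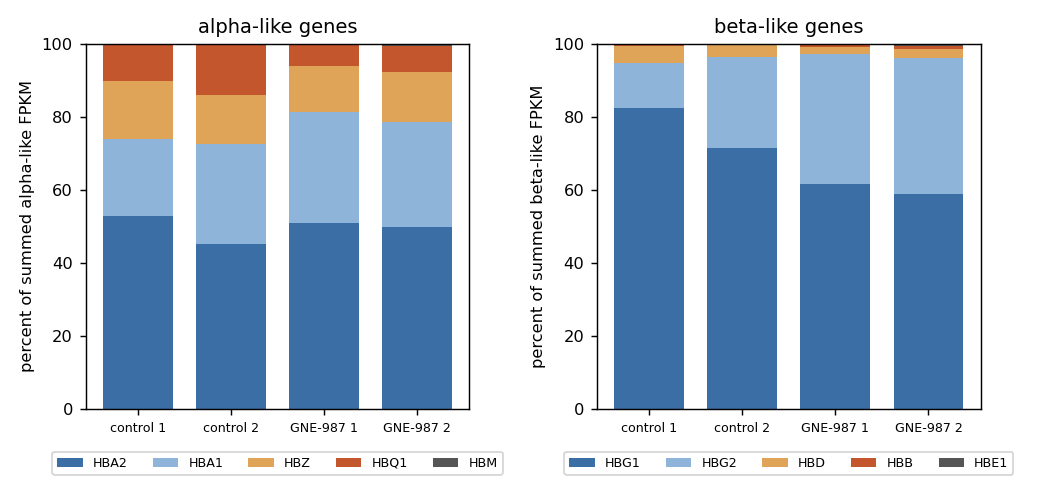
Share of each gene in the summed FPKM of its cluster in the 4 libraries, alpha-like genes on the left and beta-like genes on the right, with bars that add to 100%. HBG2 (light blue, right) takes 12.3% and 25.1% of the beta-like sum in control and 35.4% and 37.1% with GNE-987, and HBQ1 (red, left) takes 10.2% and 13.9% and then 5.99% and 7.09%.

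The genes next to the clusters were compared in the same fit, since the alpha cluster sits among broadly expressed genes and the beta cluster among olfactory receptor genes. Of 13 neighbours of the alpha cluster, 12 were tested, 5 were called higher and 0 lower, beside 33.6% of all tested genes called higher (24% of protein-coding genes), with a median log2 fold change of 0.40. A count of 5 of 12 is not far from that background. The 5 were the pseudogene HBAP1 (0.117 and 0 FPKM in control, 1.61 and 2.44 with GNE-987), PDIA2 (0.213 and 0.121, then 3.62 and 3.33), ARHGDIG (0.179 and 0.0558, then 2.17 and 2.47) and, named after their values were seen, RGS11 (listed at 0 in both control libraries, then 1.87 and 1.65) and RHBDF1 (0.963 and 0.994, then 3.55 and 2.997). All 5 were under 1 FPKM in control, and HBAP1 rests on 1 and 0 reads in control and on 5 and 8 with GNE-987. HBAP1, PDIA2, ARHGDIG and RGS11 passed the filter only through the GNE-987 libraries. Their calls thus concern genes admitted by the group in which they were high, and RHBDF1 is the exception. NPRL3, whose introns hold the alpha-globin enhancers, was at 14.4 and 12.0 FPKM in control and at 7.15 and 7.11 FPKM with GNE-987 (log2 fold change -0.87, SE 0.108, adjusted P = 0.00312). LUC7L, on the other side of the cluster, was at 9.99 and 9.74 FPKM and then at 16.8 and 16.4 FPKM (log2 fold change 0.75, SE 0.0530, adjusted P = 0.000747, and -1.09 relative to GAPDH), and neither passed the fold change of 2.

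Of 14 neighbours of the beta cluster, 6 were tested, 0 were called higher and 3 lower, beside 24.9% of all tested genes called lower, with a median log2 fold change of -1.04. OR51B4, an olfactory receptor gene beyond HBE1, was at 17.1 and 17.3 FPKM in control and at 2.82 and 1.34 FPKM with GNE-987 (log2 fold change -3.08, SE 0.376, adjusted P = 0.00301). OR51B5 was at 4.03 and 3.03 FPKM and then at 1.48 and 1.37 FPKM. OR52D1 was at 1.79 and 1.27 FPKM and then at 0.225 and 0.426 FPKM, the latter on 2 and 4 reads. The genes between HBD and HBG1 also did not rise in FPKM. The pseudogene HBBP1 was at 8.51 and 7.12 FPKM in control and at 5.68 and 5.14 FPKM with GNE-987 (log2 fold change -0.52, adjusted P = 0.0206), and the noncoding gene BGLT3 at 2.80 and 3.55 FPKM and then at 2.05 and 2.97 FPKM (log2 fold change -0.34, adjusted P = 0.258), neither of which was called. In the deposited scaling, HBD and HBG1 on either side of them were called higher.

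**Figure D4:**
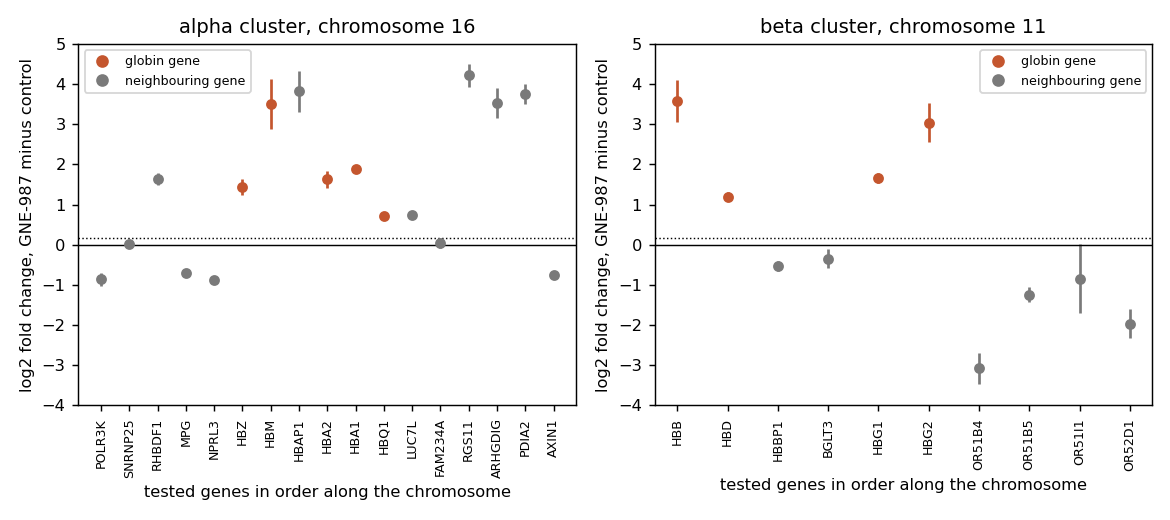
Log2 fold change of the tested genes in and around each cluster in their order along the chromosome, globin genes in red and neighbours in grey, with bars for the SE of the limma fit, a solid line at 0 and a dotted line at the median of all tested genes in the deposited scaling. In the beta cluster HBBP1 (-0.52) and BGLT3 (-0.34) lie below 0 between HBD (1.20) and HBG1 (1.66), and OR51B4 (-3.08) is the lowest point.

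Among genes known to act at the globin loci, more were called lower than higher. Of 20 activators and their cofactors, all tested, 0 were called higher and 11 lower, beside the 24.9% of all tested genes and 31.7% of protein-coding genes called lower, with a median log2 fold change of -1.13. NFE2, which binds the beta-globin enhancer, fell most, from 58.6 and 52.9 FPKM to 3.25 and 2.98 FPKM (log2 fold change -4.12, SE 0.0843, adjusted P = 0.000117). GATA1, the main erythroid transcription factor, fell from 124 and 122 FPKM to 15.1 and 12.5 FPKM (log2 fold change -3.15, SE 0.103), and the corepressor gene CBFA2T3 of the same complexes fell from 28.4 and 26.6 FPKM to 2.36 and 2.16 FPKM (-3.55, SE 0.0803). KLF1, which activates HBB through CACCC motifs, fell from 85.2 and 85.9 FPKM to 27.3 and 24.8 FPKM (-1.71, SE 0.0625). TAL1 was at 12.5 and 14.05 FPKM and then at 8.14 and 7.65 FPKM. It was not called in the deposited scaling (log2 fold change -0.74) or with quantile normalization (-0.78). It was called lower when scaled to reads on genes (-1.52) and relative to GAPDH (-2.58).

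Of 32 genes listed as repressors of the fetal and embryonic globin genes or their cofactors, 30 were tested, 3 were called higher and 14 lower, with a median log2 fold change of -0.78. Of all protein-coding genes tested, 24% were called higher and 31.7% lower. MYB, a progenitor factor whose loss raises fetal hemoglobin, fell from 27.9 and 30.1 FPKM to 1.11 and 1.79 FPKM (-4.26, SE 0.245), IKZF1 from 9.91 and 9.79 FPKM to 1.29 and 1.30 FPKM (-2.84, SE 0.0798), and HIC2 from 41.0 and 46.9 FPKM to 10.2 and 9.54 FPKM (-2.14, SE 0.0889). HIC2 is known as a repressor of BCL11A, so its place on the list does not give the direction of its effect on the globin genes. BCL11A was listed at 0 in all 4 libraries, and ZBTB7A, at 8.60 and 9.02 FPKM in control and at 6.96 and 7.16 FPKM with GNE-987, was not called (-0.32, SE 0.0646). The 3 called higher were the chromatin cofactors GATAD2B, TRIM28 and POGZ. GATAD2B was at 3.90 and 3.71 FPKM and then at 16.9 and 17.9 FPKM. Per 1000 FPKM of GAPDH, GATAD2B was at 9.79 and 8.57 and then at 11.3 and 11.9. TRIM28 was at 206 and 196 FPKM and then at 801 and 818 FPKM. Per 1000 FPKM of GAPDH, TRIM28 was at 516 and 453 and then at 534 and 546. POGZ was at 6.13 and 5.76 FPKM and then at 13.9 and 14.01 FPKM, but its log2 fold change was -0.62 relative to GAPDH. Of the 6 RNA-binding and chromatin proteins of fetal cells, 5 were tested and 3 fell, beside the same 31.7%, LIN28A from 45.4 and 49.7 FPKM to 4.60 and 4.75 FPKM (-3.32, SE 0.0690), LIN28B from 17.6 and 19.0 FPKM to 2.57 and 2.47 FPKM (-2.81, SE 0.0748) and IGF2BP1 from 35.9 and 36.3 FPKM to 10.8 and 10.9 FPKM (-1.73, SE 0.0449).

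In the deposited scaling, the genes of heme synthesis and heme response shared no direction. Of 12 such genes, 11 were tested, 1 was called higher and 2 lower, with a median log2 fold change of -0.12. Among protein-coding genes 24% were called higher and 31.7% lower, and 11 genes are few for a comparison. The median of all tested genes moved from 0.17 to -0.57 by reads on genes and to -1.59 relative to GAPDH. These scalings move all genes by nearly 1 constant, so this list would lie lower there. ALAS2, the first enzyme of heme synthesis in red cells, was at 5.47 and 5.32 FPKM in control and at 13.2 and 12.5 FPKM with GNE-987 (1.24, SE 0.0642, but -0.60 relative to GAPDH). SLC25A38, which brings glycine into the mitochondrion for that step, fell from 15.1 and 14.2 FPKM to 2.43 and 2.59 FPKM (-2.50, SE 0.0774).

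Of 14 other globins and hemoglobin partners, 7 were tested, 4 were called higher and 1 lower (24% and 31.7% of protein-coding genes), with a median log2 fold change of 1.38. AHSP, the chaperone of free alpha chains, was at 0 FPKM in control replicates 1 and 2. With GNE-987 it was at 2.13 and 0.806 FPKM, which is only 10 and 4 reads. HPX, the heme-binding plasma protein hemopexin, was likewise listed at 0 in control and then at 5.20 and 5.77 FPKM. CYB5R3, which keeps hemoglobin iron reduced, was at 14.9 and 13.9 FPKM and then at 45.7 and 46.5 FPKM (1.67, SE 0.0556, but -0.17 relative to GAPDH). BPGM, which makes the regulator of oxygen binding 2,3-bisphosphoglycerate, was at 2.96 and 3.10 FPKM and then at 8.998 and 7.18 FPKM (1.38, SE 0.137, but -0.44 relative to GAPDH).

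**Figure D5:**
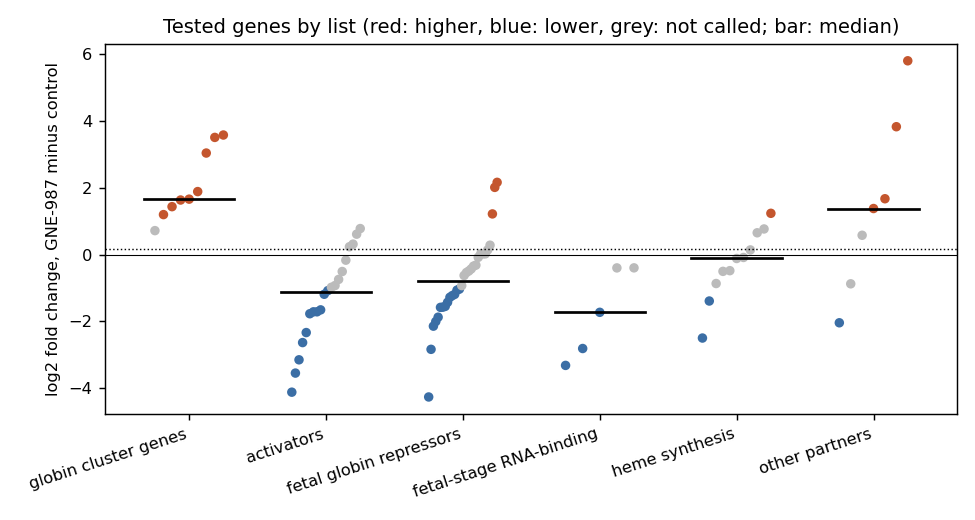
Log2 fold change of each tested gene in the globin clusters and in 5 lists of genes of the same pathway, with one point per gene, a bar at the median of each list, a solid line at 0 and a dotted line at the median of all tested genes in the deposited scaling. The globin genes lie from 0.72 to 3.58 with a median of 1.66, while the activators have a median of -1.13 and the fetal globin repressors one of -0.78.

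The genes whose pattern over the 4 libraries lay nearest to the summed FPKM of the 10 globin genes were COX6A1, COX7C, SNHG8, TIMP1 and PRDX2, at Euclidean distances from 0.0746 to 0.0850 between centred log2 values among the 3866 genes that averaged 10 FPKM or more. Their log2 fold changes lay between 1.66 and 1.70. With 4 libraries in 2 groups this likeness is mostly a like fold change, and it is a description only.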

How the data were processed

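RNA-seq measured expression in 4 libraries, 2 control and 2 GNE-987. Per the labels and the paper's methods, the authors filtered and mapped the reads with HISAT, given as HISAT2 2.0.5 with build hg38 in the submitters' processing notes, and deposited FPKM values per gene. The program that counted reads and its annotation are not given in the sources used here. Groups and replicate numbers came from the sample labels, the dose and time from the paper. Names and positions came from GENCODE release 44 on GRCh38, which holds 58207 of the 58735 identifiers (99.1%).

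The 16668 genes that averaged 0.5 FPKM or more were fitted on the log2(FPKM + 0.1) scale by limma 3.58.1, run in R 4.3.3 (empirical Bayes with an intensity trend, no replicate block). Fold changes on this scale understate the change of low genes. A call needed a fold change over 2 or under 0.5 and an unadjusted P under 0.05, the thresholds of the paper's methods. Adjusted P values follow Benjamini and Hochberg and run over every tested gene. Shares were compared with an exact permutation test.

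Whole reads (tolerance 0.01) were read from the steps between FPKM values. At GENCODE exon lengths 17431 of 32895 genes above 0 (53.0%) gave whole reads in every library, 15457 did so at another length and 7 did not, so reads of the second kind, and the totals of reads on genes, are estimates. For HBZ the length of 755 bases could also be a multiple. Replicates differed by a median of 0.117 (control) and 0.176 (GNE-987) in absolute log2 value.

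The members and lists were chosen with earlier results of these data known. The genes named were the members, a set of 17 regulators, neighbours, markers and reference genes, up to 3 called genes in each direction from each list with a mean of at least 1 FPKM, and the 5 genes most like the members. RHAG, TFRC, LYZ, CTSG, CD33, SLC4A1, EPB42, PF4, RGS11, RHBDF1, OR52D1 and HBZP1 were added with their values known. Alternatives included other scalings, pseudocounts of 1 and 0.01, other filters, calls by adjusted P, a test for changes beyond 2-fold, the replicate block, leaving out each library and limma-voom on recovered reads. Same-numbered libraries did not deviate together (correlation 0.00537), so the numbers were not taken to pair them. The values of some genes that the rule names are not reported here. The steps were tested on simulated data.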

Additional observations from a re-analysis of the deposited data

How the results depend on the processing

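Of the globin genes, 8 were called higher in the deposited scaling and also with a pseudocount of 0.01, no filter, adjusted P values and the replicate block, and 7 with a pseudocount of 1, a mean of at least 1 FPKM (of 8 tested) or a limma test for changes beyond 2-fold. The count was 2 relative to GAPDH, with 1 lower, 4 with quantile normalization, 4 by reads on genes, 4 by limma-voom on recovered reads and 3 by summed FPKM, a scaling chosen after seeing the data. It lay between 4 and 8 when each library was left out, with HBA2, HBZ, HBB and HBG2 lost without either GNE-987 replicate. Median-ratio scaling could not change a value, since the deposited values already have equal median ratios (1.008 in each library over 17391 genes). The cause was not tested beyond the shift that each scaling makes by construction. Among 73 tested genes of the pathway lists, 8 were called higher and 31 lower; relative to GAPDH these were 2 and 65, by reads on genes 4 and 48, by summed FPKM 2 and 60, and by limma-voom 4 and 48, and 8 in every case and 30 to 33 when each library was left out.

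Relative to GAPDH the log2 fold change turned to -0.22 for HBA2, -0.41 for HBZ, -1.13 for HBQ1, -0.60 for HBD, -0.19 for HBG1, -1.09 for LUC7L, -0.17 for CYB5R3, -0.44 for BPGM, -0.62 for POGZ, -0.60 for ALAS2 and -0.38 for GP1BA. By summed FPKM it turned to -0.033 for HBZ, -0.75 for HBQ1, -0.23 for HBD, -0.72 for LUC7L, -0.062 for BPGM, -0.24 for POGZ, -0.22 for ALAS2 and -0.024 for GP1BA, and with quantile normalization to -0.11 for GAPDH. By reads on genes it turned to -0.064 for HBQ1 and -0.033 for LUC7L, and by limma-voom to -0.061 and -0.033. Of the other values of single genes under an alternative, 790 kept direction and call, 54 lost the call and 30 gained it. The 790 include median-ratio scaling, which could change nothing. The fold change also stays the same by construction with adjusted P values, the filters, the replicate block and the test beyond 2-fold. This count is thus no measure of stability.

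The replicate block left the 8 globin genes called. The differences in share were 18.04 points for HBG2 in the gamma pair, -5.37 points for the alpha-like genes and -5.52 points for HBQ1, and 12.5, -3.99 and -3.88 points from recovered reads; leaving out each library gave 11.5 to 24.6, -9.17 to -1.57 and -7.34 to -3.70 points. Lengths of the main transcripts, an alternative chosen after seeing the data, gave 12.6, -3.98 and -4.38 points. Summing the near-identical copies leaves the shares of the clusters as they were by construction. The planned edgeR test on recovered reads was not run, and limma-voom on those reads was. HBM, HBB and HBE1 rest on 43 or fewer reads over all 4 libraries, which limits the precision of their ratios.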

Other observations

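Marker genes of other blood cell types were compared in the same fit, where 24% of protein-coding genes were called higher and 31.7% lower. All 3 tested megakaryocyte markers of 7 listed were called higher, among them ITGA2B (0.485 and 0.472 FPKM in control, 3.71 and 4.27 FPKM with GNE-987) and GP1BA (0.903 and 0.940, then 2.49 and 2.54 FPKM, but -0.38 on the log2 scale relative to GAPDH), while PF4 was listed at 0 in all 4 libraries. Of 6 lymphoid markers 2 were tested, and CD79A, a part of the B cell receptor, went from 0.0867 and 0 FPKM to 23.4 and 21.4 FPKM. Of the 11 erythroid markers tested, 2 were called higher (ALAS2 and AHSP) and 6 lower, HEMGN the most, from 23.6 and 23.6 FPKM to 1.05 and 0.521 FPKM, and EPOR, the receptor of erythropoietin, from 7.43 and 7.61 FPKM to 1.09 and 0.736 FPKM. SPI1, a myeloid transcription factor, was at 7.52 and 5.68 FPKM and then at 4.80 and 3.23 FPKM. It was not called in the deposited scaling. Per 1000 FPKM of GAPDH, SPI1 was at 18.9 and 13.1 in control and at 3.20 and 2.15 with GNE-987. How these markers relate to the globin genes was not tested.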
